A study of Homo sapiens with 12 samples.

Results

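The small nucleolar RNA (snoRNA) host genes were followed in 2 human diffuse large B-cell lymphoma lines given selinexor, an inhibitor of the nuclear export receptor XPO1. The family was taken by name: every gene called SNHG followed by a number, and GAS5, of any gene type. This gave 26 of the 58302 rows of the gene table, of which 21 had a mean of at least 10 counts over the 12 libraries. All 21 were tested. The other 5 were SNHG22, with a mean of 3.667 counts, SNHG18 and SNHG27 with no counts in any library, and 2 rows named SNHG28, neither above 1 count in a library. At this depth nothing can be said of these 5.

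Each group held 3 libraries of wild-type cells: selinexor-treated SU-DHL6, untreated SU-DHL6, selinexor-treated OCI-LY3 and untreated OCI-LY3. Both are established lines: SU-DHL6 is labelled as the germinal centre type of the disease and OCI-LY3 as the activated B-cell type (ABC). The protocols name 300 and 100 nM of drug and 24 and 48 h of exposure, but tie neither to a library or a line, so a difference between the lines cannot be told apart from a difference of dose or time. The replicates are described as biological triplicates with no account of how cultures were set up, so p-values measure the spread between these libraries.

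Library totals ran from 14210200 to 16405842 counts. Levels are given as CPM, counts scaled to a common library total. The sum of 5 markers of the activated type was 156 to 163 CPM in treated and 206 to 213 CPM in untreated SU-DHL6 libraries, and 1770 to 1920 CPM in treated and 2370 to 2450 CPM in untreated OCI-LY3 libraries. The sum of 5 germinal centre markers was 342 to 383 CPM in treated and 479 to 499 CPM in untreated SU-DHL6 libraries, and 120 to 125 CPM in treated and 133 to 138 CPM in untreated OCI-LY3 libraries. BCL6 made up nearly all of the OCI-LY3 sum, at a mean of 119 CPM treated and 132 CPM untreated. With drug, 2 of the 5 were called higher and 0 lower in OCI-LY3 (22.2% of all genes each way, edgeR). In SU-DHL6, 0 were called higher and 3 lower (20.4% and 22.8% of all genes). Markers of other cell types also moved with the drug in OCI-LY3: 3 T-cell markers summed to 1.59 to 2.17 CPM with drug and 0 to 0.367 CPM without, 3 myeloid markers to 3.96 to 4.6 CPM with drug and 0.421 to 1.18 CPM without, and 3 epithelial or stromal markers to 28 to 38 CPM with drug and 22.1 to 23.3 CPM without. CD3E, CSF1R and COL1A1, the only marker tested in each of these lists, were called higher there (log2 3.23, 2.23 and 0.53, SE 0.60, 0.38 and 0.18). In SU-DHL6 none of these sums exceeded 0.72 CPM, and CD3E was called lower (-2.58, SE 0.79). The part of these markers in the results was not tested. XPO1 itself rose in both lines, by 1.77 (SE 0.13) in SU-DHL6 and by 0.99 (SE 0.13) in OCI-LY3 on the log2 scale (adjusted p = 1.1e-07 and 2.4e-05, edgeR quasi-likelihood test).

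A snoRNA host gene carries one or more snoRNAs in its introns. Splicing frees the introns, from which box C/D snoRNAs, guides of ribose methylation, and box H/ACA snoRNAs, guides of pseudouridylation, are trimmed, and the small Cajal body RNAs (scaRNAs) that modify spliceosomal RNAs are made in the same way. The spliced host RNA is left over: it codes for little or no protein, and several such RNAs, GAS5 the best known, are degraded by nonsense-mediated decay when they are translated and begin with the oligopyrimidine tract that ties ribosomal protein messengers to growth signals. By RefSeq, 7 of the 21 tested hosts carried box C/D snoRNAs, 8 carried box H/ACA snoRNAs, 3 carried both kinds and 3 carried a scaRNA.

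The starts of 6 hosts are printed here, those of the hosts with a RefSeq promoter that fell with selinexor in either line and rose in neither. Their RefSeq starts lie within 53 bases of the locus end in the table. Each run holds 50 bases before and 50 bases from the start (RefSeq, GRCh38.p14), 5′ to 3′ on the gene's strand, and capitals mark CTTT where it lies within 25 bases of the start.
SNHG5, at chr6:85678684-85678783, minus strand: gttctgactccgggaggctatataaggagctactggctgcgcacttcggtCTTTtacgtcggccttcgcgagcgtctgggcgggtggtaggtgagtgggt
SNHG8, at chr4:118278712-118278811, plus strand: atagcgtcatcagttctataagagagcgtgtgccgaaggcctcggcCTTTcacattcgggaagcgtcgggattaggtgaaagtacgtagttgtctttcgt
SNHG7, at chr9:136728135-136728234, minus strand: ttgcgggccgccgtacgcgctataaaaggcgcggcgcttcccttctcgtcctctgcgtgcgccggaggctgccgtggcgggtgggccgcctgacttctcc
SNHG4, at chr5:139274051-139274150, plus strand: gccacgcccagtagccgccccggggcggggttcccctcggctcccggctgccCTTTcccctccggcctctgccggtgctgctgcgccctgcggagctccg
SNHG1, at chr11:62855836-62855935, minus strand: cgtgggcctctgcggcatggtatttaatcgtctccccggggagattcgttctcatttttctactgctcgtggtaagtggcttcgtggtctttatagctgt
SNHG17, at chr20:38435279-38435378, minus strand: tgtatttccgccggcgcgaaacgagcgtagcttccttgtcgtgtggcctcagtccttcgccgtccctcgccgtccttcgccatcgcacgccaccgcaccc

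CTTT, read on the sense strand only, lay near the start of 8 of the 17 tested hosts with a RefSeq promoter: SNHG4, SNHG5, SNHG8, SNHG12, SNHG16, SNHG19, SNHG21 and SNHG26. The same window held it in 18.7% of 35116 promoters. For some hosts the RefSeq start lay far from the locus end in the table: 163 bases for GAS5, 1110 for SNHG12, 1927 for SNHG20 and 154975 for SNHG14. For these hosts the window may not hold the start of the counted gene, so neither a match nor its absence can be placed there. In the 300 bases from 250 before to 50 after the start, read on both strands, TTCCGG was found in 5 of the 17 hosts and 17.2% of all promoters. CACGTG was found in 1 host, SNHG7, and 7.26% of promoters, and TGATGNAA in 0 of 17 and 3.62%. These are matches of letters and say nothing of what binds there. Hosts with CTTT went both ways in SU-DHL6: SNHG4, SNHG5 and SNHG8 fell, whereas SNHG26 rose. SNHG12, whose match cannot be placed, also rose, and SNHG16, SNHG19 and SNHG21 were not called there.

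Together the 26 rows took 0.0914% to 0.103% of all counts in treated SU-DHL6 libraries and 0.101% to 0.108% in untreated ones, and 0.099% to 0.106% in treated OCI-LY3 libraries and 0.104% to 0.12% in untreated ones. Levels were compared between genes as CPM per kilobase of the exons in GENCODE 29. In untreated OCI-LY3 cells the highest hosts were SNHG8 at 115 ± 10.6, SNHG19 at 77.2 ± 9.72, SNHG6 at 75 ± 3.06 and GAS5 at 66.3 ± 7.05 (CPM per kilobase, SD, n = 3), the last 3 within each other's spread. In untreated SU-DHL6 cells SNHG6 came first at 206 ± 20.7, ahead of GAS5 at 59 ± 5.78, SNHG8 at 49.8 ± 1.98 and SNHG19 at 33.4 ± 11.3. SNHG14 was near the bottom in both, at 1 ± 0.0917 in untreated OCI-LY3 and 0.937 ± 0.131 in untreated SU-DHL6, over an exon length of 43324 bases. The order depends on the length used: by the authors' deposited FPKM, SNHG19 led in untreated OCI-LY3 (73.32 ± 8.87, against 55.35 ± 4.81 for SNHG8; SD, n = 3), and SNHG7 came 4th and GAS5 5th in both untreated lines.

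**Figure D1:**
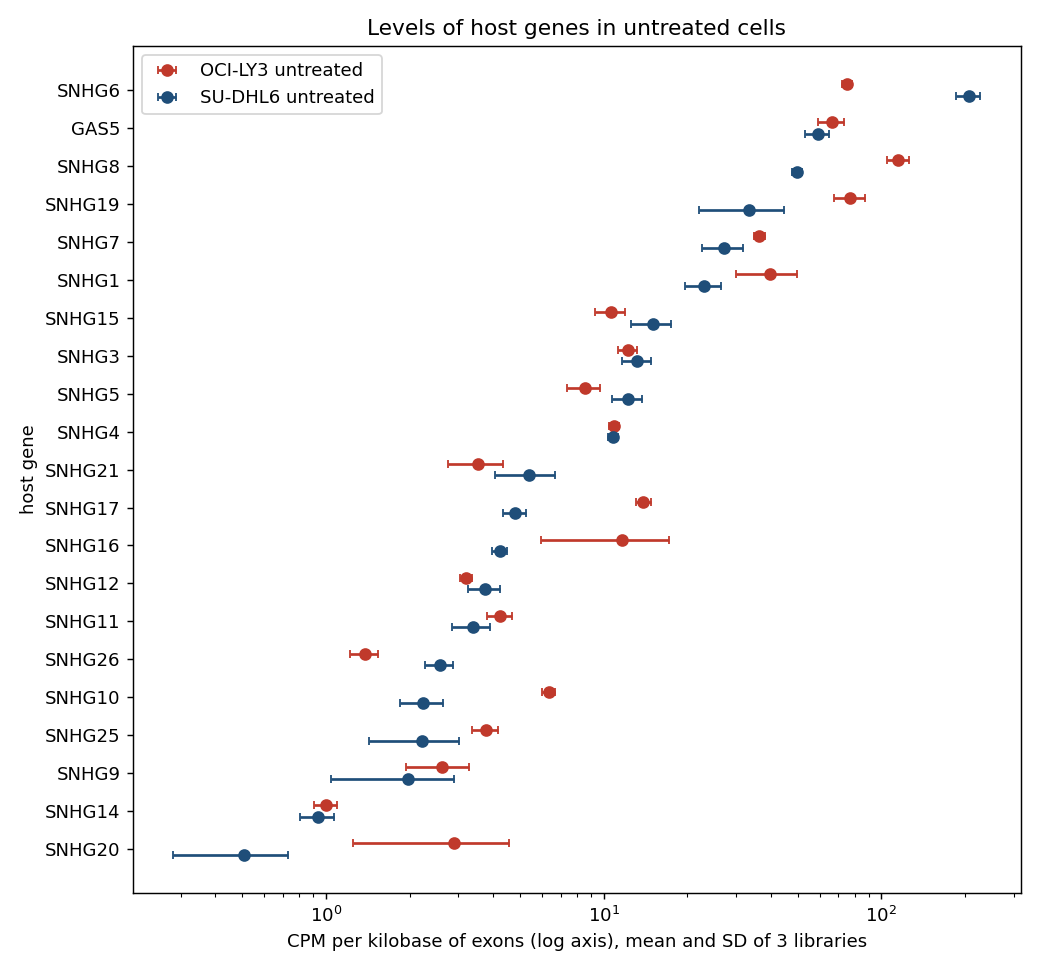
Level of each of the 21 tested host genes in untreated OCI-LY3 and untreated SU-DHL6 cells, as CPM per kilobase of exons on a log axis, with points for the mean and bars for the SD of 3 libraries. SNHG6, GAS5, SNHG8 and SNHG19 are the highest 4 in both lines by this length, and SNHG8 leads in OCI-LY3 whereas SNHG6 leads in SU-DHL6.

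Between the untreated lines, 12 of the 21 hosts differed at an adjusted p under 0.05 (edgeR), where 67.3% of all 16474 genes tested did. Of these, 8 were higher in OCI-LY3, against 33.6% of all genes (SNHG1, SNHG7, SNHG8, SNHG10, SNHG16, SNHG17, SNHG19 and SNHG20), and 4 were lower in it, against 33.7% (SNHG5, SNHG6, SNHG15 and SNHG26). Among the largest differences were SNHG17, host of the SNORA71 family, at 58 ± 3.64 CPM in untreated OCI-LY3 and 20.1 ± 1.89 CPM in untreated SU-DHL6, and SNHG6, at 93.5 ± 3.82 CPM in OCI-LY3 and 256 ± 25.8 CPM in SU-DHL6 (SD, n = 3; log2 differences 1.53 and -1.45, SE 0.12 and 0.13). GAS5 was at 241 ± 25.6 CPM in untreated OCI-LY3 and 214 ± 21 CPM in untreated SU-DHL6, a log2 difference of 0.17 (SE 0.11; adjusted p = 0.189, edgeR). The calls of SNHG5 and SNHG15 were lost without untreated OCI-LY3 replicate 3 (adjusted p = 0.0653 and 0.0633, edgeR) or without untreated SU-DHL6 replicate 3 (0.0538 and 0.0616), which left 2 hosts lower in OCI-LY3. That of SNHG20 was lost without untreated OCI-LY3 replicate 2 or 3, or untreated SU-DHL6 replicate 2 or 3 (adjusted p from 0.0575 to 0.0764). Without untreated SU-DHL6 replicate 3, SNHG11 was also called (log2 difference 0.48, adjusted p = 0.0234), as was SNHG21 without untreated SU-DHL6 replicate 1 or treated SU-DHL6 replicate 3 (-0.79 and -0.60, adjusted p = 0.0241 and 0.0476).

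With selinexor, 12 of the 21 hosts changed in SU-DHL6, where 43.2% of all genes tested changed: 6 were higher, against 20.4% of all genes, and 6 lower, against 22.8%. In OCI-LY3, 10 changed, where 44.4% of all genes did: 3 were higher and 7 lower, against 22.2% of all genes in each direction. The median log2 fold change of the 21 was 0.10 in SU-DHL6 and -0.36 in OCI-LY3, against 0.00 over all genes in each line. SNHG14 and SNHG26 rose in both lines and SNHG4 and SNHG7 fell in both, in these fits. GAS5 fell in SU-DHL6 and rose in OCI-LY3, and SNHG3 and SNHG12 rose in SU-DHL6 and fell in OCI-LY3. SNHG5, SNHG6 and SNHG8 fell, and SNHG9 and SNHG10 rose, past the threshold in SU-DHL6 alone, and SNHG1, SNHG15 and SNHG17 fell past it in OCI-LY3 alone. SNHG11, SNHG16, SNHG19, SNHG20, SNHG21 and SNHG25 passed it in neither line. The share of all genes with each of these patterns over the lines was not counted, so they cannot be read as a trait of the hosts.

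The difference of the responses, SU-DHL6 minus OCI-LY3, was itself called for 12 hosts, where 36.9% of all genes were called: 7 were above 0, against 17.0% of all genes, and 5 below, against 19.9%. Scaling by library totals with no further factor moved the median of all genes by 0.27 in SU-DHL6, by -0.09 in OCI-LY3 and by 0.35 for the difference (log2). Under it 9 hosts were called higher and 5 lower in SU-DHL6, 2 higher and 9 lower in OCI-LY3, and 10 above and 4 below 0 for the difference. All genes then split into 5451 higher and 2367 lower in SU-DHL6, against 3365 and 3758 with the scaling used here, and for the difference into 4891 above and 1817 below, against 2798 and 3274. In OCI-LY3 all genes also tilted lower under it, with 2939 higher and 4388 lower, against 3664 and 3657. In bulk RNA from a culture, a change in all cells and a change in the share of some cells cannot be told apart.

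**Figure D2:**
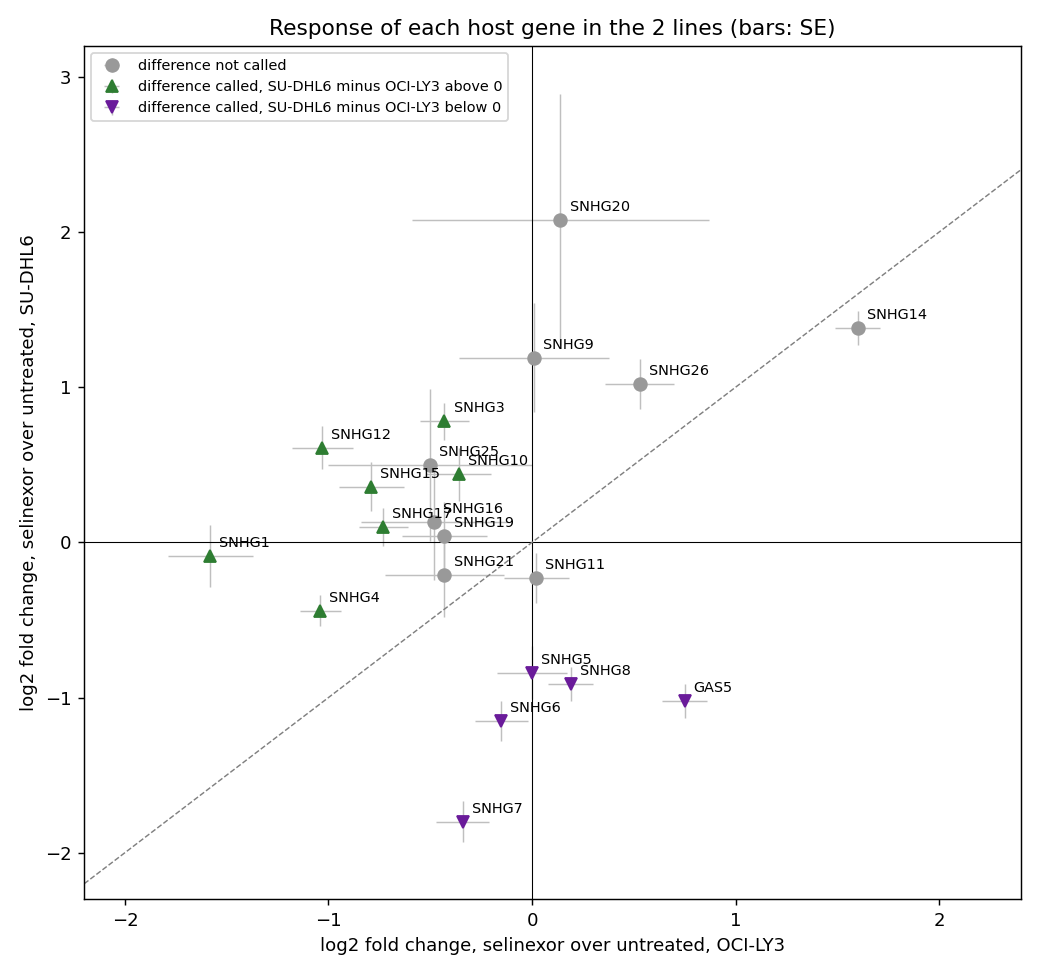
Log2 fold change of selinexor over untreated cells for the 21 tested host genes, in SU-DHL6 (vertical axis) and OCI-LY3 (horizontal axis), with bars for the SE and a dashed line where the responses are equal. Triangles mark the 12 hosts with a called difference of responses: SNHG1, SNHG3, SNHG4, SNHG10, SNHG12, SNHG15 and SNHG17 lie above the line, and GAS5, SNHG5, SNHG6, SNHG7 and SNHG8 below it.

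Among the hosts of box C/D snoRNAs, 2 rose and 2 fell of 7 in SU-DHL6 (20.4% and 22.8% of all genes) and 2 rose and 1 fell in OCI-LY3 (22.2% of all genes each way). SNHG14 (chr15:24978583-25419462) is the long imprinted transcript of the Prader-Willi region that carries the SNORD116 and SNORD115 clusters and runs antisense to UBE3A. It had 99.2, 108 and 109 CPM in treated SU-DHL6 libraries, against 47.1, 37.7 and 36.9 CPM in untreated ones. In OCI-LY3 the values were 125, 133 and 138 CPM in treated libraries and 48, 41.8 and 40.6 CPM in untreated ones. Treated and untreated libraries did not overlap in either line. The rise was 2.59-fold in SU-DHL6 and 3.04-fold in OCI-LY3 (log2 1.38 and 1.60, SE 0.11 each; adjusted p = 3.5e-07 and 8.5e-08, edgeR), and the difference of -0.23 was not called (SE 0.16; adjusted p = 0.277; 0.15 when scaled by library totals).

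Several genes lie in the same stretch as SNHG14, and the counting of shared reads is not stated. SNRPN, a splicing protein gene of the same strand that shares 141 exon bases with it, averaged 79 CPM in treated and 101 CPM in untreated SU-DHL6 cells and 322 CPM in treated and 117 CPM in untreated OCI-LY3 cells (log2 fold change -0.35 and 1.46, both called). UBE3A, a ubiquitin ligase gene on the opposite strand, passed the threshold in neither line (log2 fold change 0.02 in SU-DHL6 and -0.18 in OCI-LY3). The noncoding PWAR6, which lies within SNHG14 and shares no exon with it, rose in both (0.87, SE 0.21, and 1.33, SE 0.21). PWAR5, which also lies there with no shared exon, rose in SU-DHL6 (1.96, SE 0.29) and was not called in OCI-LY3 (0.50, SE 0.28). Its responses differed by 1.46 (SE 0.40; adjusted p = 0.0107, edgeR).

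SNHG26 (chr7:22854178-22861579), host of SNORD93, had 14.1, 12.5 and 14.5 CPM in treated SU-DHL6 libraries, against 7.26, 7.15 and 5.85 CPM in untreated ones. In OCI-LY3 it had 5.59, 5.19 and 4.91 CPM in treated libraries, against 3.13, 3.86 and 3.89 CPM in untreated ones. Every treated library was above every untreated one of its line. The log2 rise was 1.02 (SE 0.16; adjusted p = 1.2e-04, edgeR) in SU-DHL6 and 0.53 (SE 0.17; adjusted p = 0.0211) in OCI-LY3. The OCI-LY3 call was lost without treated replicate 1 (0.48, adjusted p = 0.0668) or untreated replicate 1 of that line (0.43, adjusted p = 0.0922), and with library totals (0.41, adjusted p = 0.0701).

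SNHG6 (chr8:66921684-66926398), host of SNORD87, had 140, 110 and 95.4 CPM in treated SU-DHL6 libraries, against 227, 265 and 277 CPM in untreated ones. Its OCI-LY3 values were 80.9, 83.3 and 87.9 CPM with drug and 95.6, 95.9 and 89.1 CPM without. The fall in SU-DHL6 was 2.22-fold (log2 -1.15, SE 0.13; adjusted p = 6.6e-06, edgeR). In OCI-LY3 the 3 treated libraries were also below the 3 untreated ones, by a log2 difference of -0.15 that was not called (SE 0.13; adjusted p = 0.347), and the responses differed by -1.0 (SE 0.18; adjusted p = 6.0e-04). MCMDC2, which shares 365 exon bases on the opposite strand, had a mean of 5.917 counts.

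SNHG5 (chr6:85660950-85678736), which carries SNORD50A and SNORD50B, had 24.1, 16.8 and 16.5 CPM in treated SU-DHL6 libraries, against 29.4, 36.3 and 37.3 CPM in untreated ones. It had 21.3, 24.2 and 26.4 CPM in treated OCI-LY3 libraries, against 26.1, 25.6 and 20.2 CPM in untreated ones. The groups were apart in SU-DHL6 (log2 -0.84, SE 0.17; adjusted p = 9.1e-04, edgeR) and overlapped in OCI-LY3 (-0.00, SE 0.17). The difference of -0.84 was called (SE 0.23; adjusted p = 0.0116), but not with library totals (-0.47, adjusted p = 0.114).

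SNHG1 (chr11:62851988-62855914), which carries 8 box C/D snoRNAs, moved in OCI-LY3 instead. It had 85.9, 74 and 83.5 CPM in treated SU-DHL6 libraries, against 97.7, 72.3 and 89.6 CPM in untreated ones, which overlap. Its OCI-LY3 levels were 37.7, 49.2 and 63.4 CPM with drug, against 108, 179 and 161 CPM without, a 2.98-fold fall with no overlap (log2 -1.58, SE 0.21; adjusted p = 5.9e-05, edgeR). The SU-DHL6 value was -0.09 (SE 0.20; adjusted p = 0.758) and the responses differed by 1.49 (SE 0.29; adjusted p = 0.00155).

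The remaining box C/D hosts passed in neither line. SNHG16 had 15.3 to 29.8 CPM in treated and 21 to 23.7 CPM in untreated SU-DHL6 libraries. OCI-LY3 libraries had 43.1 to 45.7 CPM with drug, against 82.6, 77 and 27.6 CPM without, where replicate 3 stood below all treated libraries. Without that library SNHG16 fell in OCI-LY3 (log2 -0.84, adjusted p = 0.00726, edgeR, against -0.48 and 0.315 with it), and the difference of responses was called (0.96, adjusted p = 0.022). SNHG19 had 9.89 to 13.7 CPM in treated and 7.53 to 15.2 CPM in untreated SU-DHL6 libraries, and 16.7 to 22 CPM in treated and 24 to 30.2 CPM in untreated OCI-LY3 libraries (log2 0.04 and -0.43, SE 0.22 and 0.21), overlapping in SU-DHL6 and apart in OCI-LY3. Its OCI-LY3 value passed without untreated SU-DHL6 replicate 1 (adjusted p = 0.0409, edgeR), in the OCI-LY3 libraries alone (-0.44, 0.0224) and with library totals (-0.55, 0.0405).

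**Figure D3:**
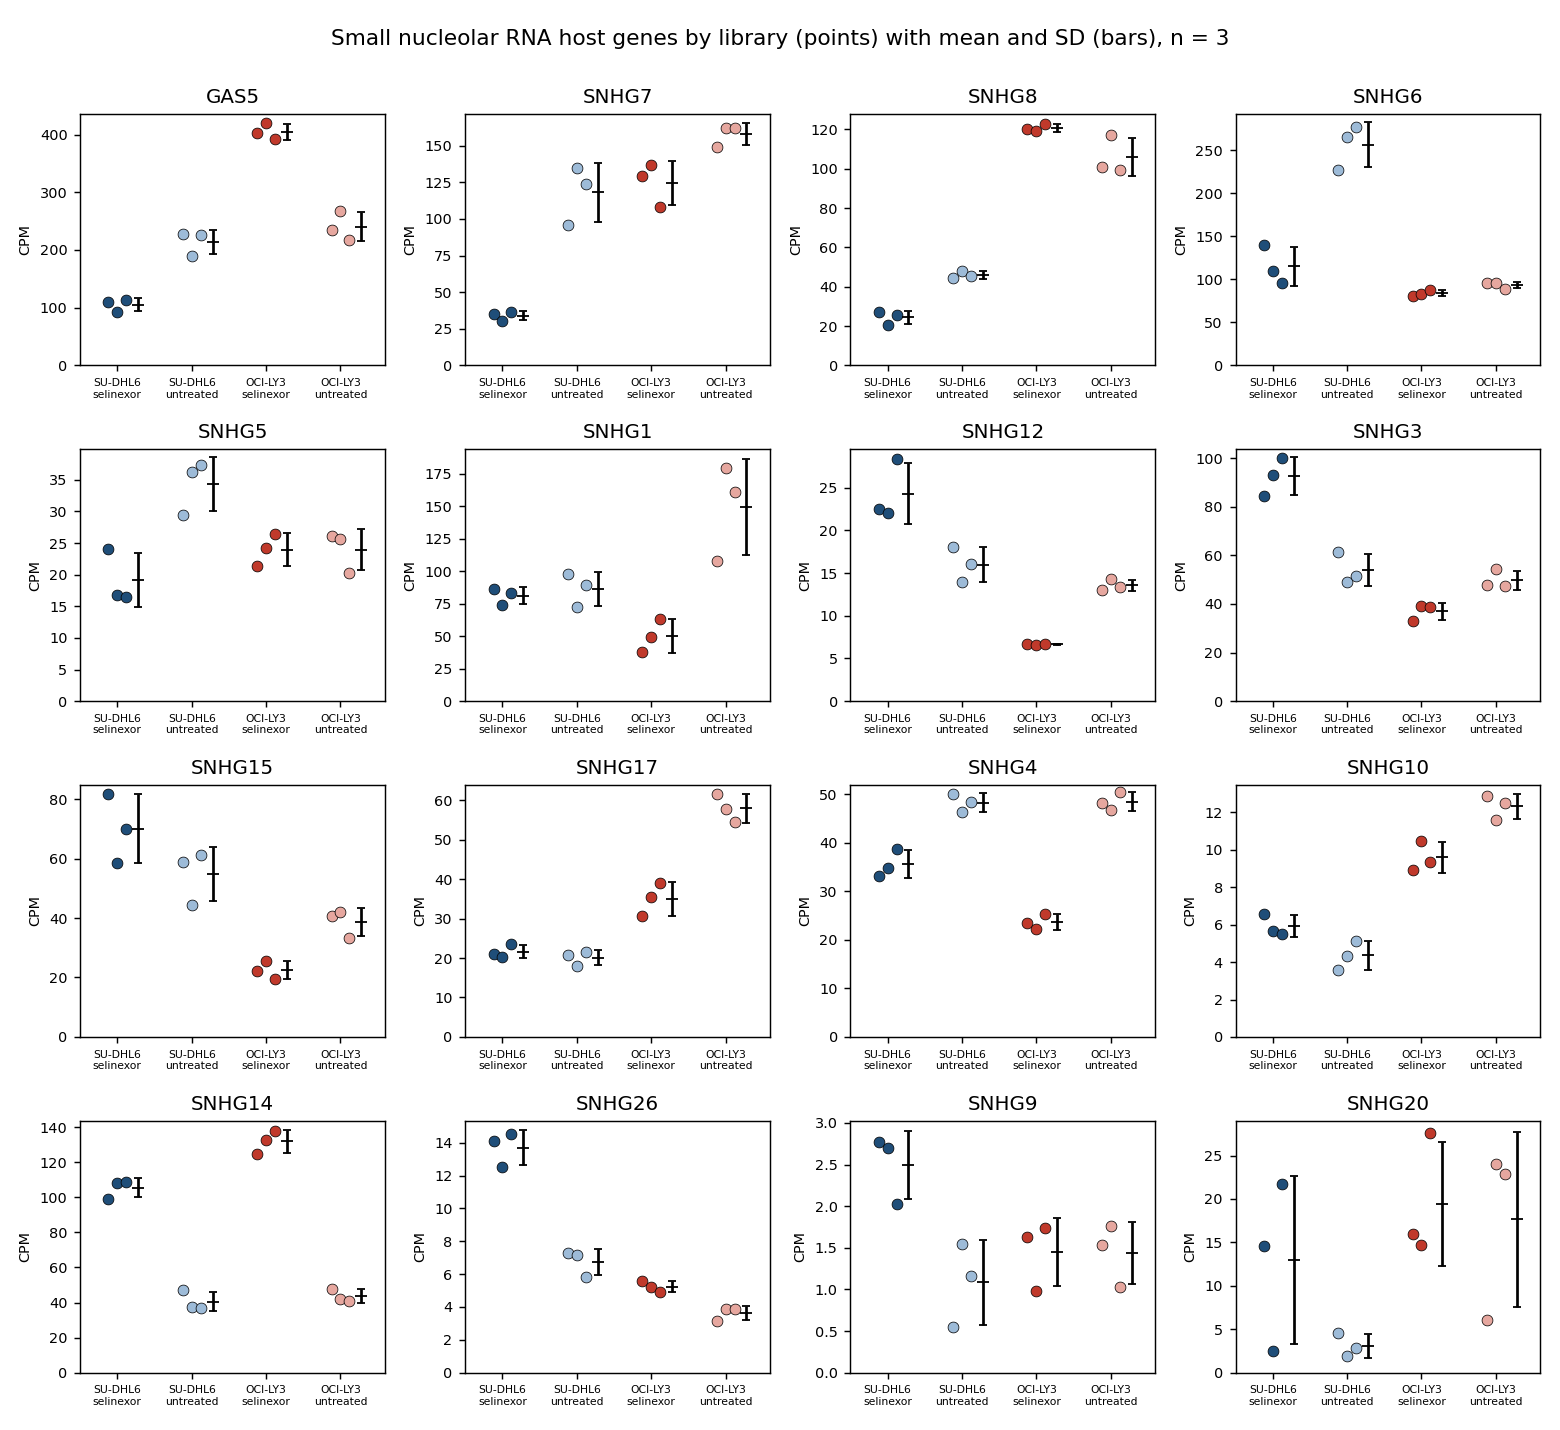
CPM of 16 host genes in each library, with 3 points for a group and the mean and SD beside them, for treated and untreated SU-DHL6 and treated and untreated OCI-LY3 cells. GAS5 lies at 93.3 to 113 CPM in treated SU-DHL6 and 393 to 420 CPM in treated OCI-LY3 libraries, on opposite sides of the untreated cells of both lines, while SNHG14 is high in the treated cells of both.

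Among the hosts of box H/ACA snoRNAs, 2 rose and 3 fell of 8 in SU-DHL6 (20.4% and 22.8% of all genes) and 0 rose and 5 fell in OCI-LY3 (22.2% of all genes each way). SNHG7 (chr9:136721366-136728184), host of SNORA17A and SNORA17B, had 34.8, 30.4 and 36.6 CPM in treated SU-DHL6 libraries, against 96, 135 and 124 CPM in untreated ones. It had 129, 137 and 108 CPM in treated OCI-LY3 libraries, against 149, 162 and 162 CPM in untreated ones. All treated libraries were below the untreated ones of their line. The fall was 3.48-fold in SU-DHL6 (log2 -1.80, SE 0.13; adjusted p = 1.3e-07, edgeR), the largest fall among the 21 in that line. In OCI-LY3 it was -0.34 (SE 0.13; adjusted p = 0.0434), and that call was lost without any single OCI-LY3 library other than treated replicate 2, and without treated SU-DHL6 replicate 1 or 3 (adjusted p from 0.0513 to 0.175). The difference was -1.46 (SE 0.18; adjusted p = 3.7e-05). FAM69B shares 1094 exon bases with SNHG7 on the opposite strand. It had log2 fold changes of -0.98 (adjusted p = 0.0486, edgeR) in SU-DHL6 and -0.13 in OCI-LY3. Its SU-DHL6 level was low, at 0.267 to 0.443 CPM in treated and 0.497 to 1.08 CPM in untreated libraries. OCI-LY3 libraries had 12.6 to 18.9 CPM of FAM69B with drug and 15.1 to 19.9 CPM without. Whether the counting used strand is not stated.

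SNHG8 (chr4:118278709-118279823), host of SNORA24, had 27.1, 20.8 and 25.7 CPM in treated SU-DHL6 libraries, against 44.4, 48 and 45.4 CPM in untreated ones. In OCI-LY3 it had 120, 119 and 123 CPM with drug, against 101, 117 and 99.6 CPM without. It fell in SU-DHL6 (log2 -0.91, SE 0.11; adjusted p = 1.7e-05, edgeR). The treated OCI-LY3 libraries were all above the untreated ones by a small margin that was not called (0.19, SE 0.11; adjusted p = 0.178), and the responses differed by -1.09 (SE 0.15; adjusted p = 9.4e-05).

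SNHG3 (chr1:28505980-28510892) carries SNORA73A and SNORA73B, which act in the processing of ribosomal RNA. It had 84.4, 92.9 and 100 CPM in treated SU-DHL6 libraries, against 61.4, 49.1 and 51.6 CPM in untreated ones. Its OCI-LY3 levels were 33, 39.1 and 38.9 CPM with drug, against 47.6, 54.3 and 47.3 CPM without. No groups overlapped. SNHG3 rose in SU-DHL6 (log2 0.78, SE 0.12; adjusted p = 1.1e-04, edgeR) and fell in OCI-LY3 (-0.43, SE 0.12; adjusted p = 0.00903), a difference of 1.20 (SE 0.17; adjusted p = 8.0e-05). RCC1, which encodes the exchange factor that loads Ran with GTP and shares 242 exon bases with SNHG3 on the same strand, fell in both lines (-1.23, SE 0.16, and -1.08, SE 0.16).

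SNHG15 (chr7:44983023-44986961), host of SNORA9, had 81.6, 58.4 and 70.1 CPM in treated SU-DHL6 libraries, against 58.7, 44.4 and 61.1 CPM in untreated ones, which overlap. It had 22.3, 25.6 and 19.5 CPM in treated OCI-LY3 libraries, against 40.8, 42.1 and 33.4 CPM in untreated ones, which do not. It fell in OCI-LY3 (log2 -0.79, SE 0.16; adjusted p = 0.00124, edgeR). The SU-DHL6 value was 0.36 (SE 0.16; adjusted p = 0.0816) and passed without treated replicate 2 (0.47, adjusted p = 0.038) or untreated replicate 3 (0.47, adjusted p = 0.0492) of that line. The responses differed by 1.14 (SE 0.23; adjusted p = 0.00123).

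SNHG17 (chr20:38420588-38435353), host of 4 snoRNAs of the SNORA71 family, had 21.1, 20.2 and 23.5 CPM in treated SU-DHL6 libraries, against 20.8, 18 and 21.5 CPM in untreated ones. OCI-LY3 libraries had 30.6, 35.4 and 39.1 CPM with drug, against 61.7, 57.8 and 54.4 CPM without. Only the OCI-LY3 groups were apart, with a log2 fold change of -0.73 (SE 0.12; adjusted p = 2.1e-04, edgeR) against 0.10 (SE 0.12; adjusted p = 0.524) in SU-DHL6, a difference of 0.83 (SE 0.17; adjusted p = 0.0016).

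SNHG4 (chr5:139274102-139283244), host of SNORA74A and SNORA74D, had 33.1, 34.9 and 38.7 CPM in treated SU-DHL6 libraries, against 50.1, 46.3 and 48.5 CPM in untreated ones. In OCI-LY3 it had 23.4, 22.2 and 25.4 CPM with drug, against 48.3, 46.7 and 50.5 CPM without. It fell in both, by 0.44 (SE 0.10; adjusted p = 0.00248, edgeR) in SU-DHL6 and by 1.04 (SE 0.10; adjusted p = 1.9e-06) in OCI-LY3 on the log2 scale. Untreated levels were 48.5 ± 1.94 CPM in OCI-LY3 and 48.3 ± 1.92 CPM in SU-DHL6 (SD, n = 3). With library totals the SU-DHL6 value was -0.18 and not called (adjusted p = 0.201). The responses differed by 0.59 (SE 0.14; adjusted p = 0.0046). SNHG4 shares 626 exon bases with MATR3, whose replicates were too uneven to place (log2 0.20, SE 0.67, in SU-DHL6 and 0.51, SE 0.67, in OCI-LY3). It shares 118 with SIL1 on the opposite strand, which fell in OCI-LY3 (-0.80, SE 0.16) and was not called in SU-DHL6 (-0.21, SE 0.15).

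SNHG9 (chr16:1964959-1965509), host of SNORA78, was near the lower end, at 2.77, 2.7 and 2.03 CPM in treated SU-DHL6 libraries, against 0.543, 1.55 and 1.16 CPM in untreated ones. Its OCI-LY3 levels were 1.63, 0.978 and 1.74 CPM with drug, against 1.53, 1.76 and 1.03 CPM without. It rose in SU-DHL6 (log2 1.19, SE 0.35; adjusted p = 0.014, edgeR), a call lost without untreated SU-DHL6 replicate 1 (0.87, adjusted p = 0.0511). The difference from the OCI-LY3 value of 0.01 was 1.19 (SE 0.51; adjusted p = 0.0861), called without untreated SU-DHL6 replicate 2 (1.54, adjusted p = 0.0412). SNHG11, the other H/ACA host, had 7.25 to 8.93 CPM in treated and 8.33 to 11.1 CPM in untreated SU-DHL6 libraries, and 11.4 to 13.1 CPM in treated and 10.7 to 13.2 CPM in untreated OCI-LY3 libraries, with overlap in both.

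GAS5, SNHG12 and SNHG25 carry both kinds of snoRNA. GAS5 (chr1:173863900-173868882), named for its accumulation in growth-arrested cells, holds 10 box C/D snoRNAs and 1 box H/ACA snoRNA and was the most counted of the 21. It had 110, 93.3 and 113 CPM in treated SU-DHL6 libraries, against 227, 190 and 226 CPM in untreated ones. OCI-LY3 libraries had 402, 420 and 393 CPM with drug, against 235, 268 and 218 CPM without. The lines started within each other's spread and ended apart. GAS5 fell 2.03-fold in SU-DHL6 (log2 -1.02, SE 0.11; adjusted p = 5.4e-06, edgeR) and rose 1.68-fold in OCI-LY3 (log2 0.75, SE 0.11; adjusted p = 7.2e-05), a difference of -1.77 (SE 0.15; adjusted p = 1.6e-06). Its antisense gene GAS5-AS1 shares 42 exon bases with it and had a mean of 8.417 counts.

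SNHG12 (chr1:28578538-28582983) holds 3 box H/ACA snoRNAs and 1 box C/D snoRNA and lies on the opposite strand to TRNAU1AP, with which it shares 8 exon bases and which went the opposite way in each line (log2 -0.53 in SU-DHL6 and 0.44 in OCI-LY3, SE 0.11 each, both called). It had 22.5, 22 and 28.4 CPM in treated SU-DHL6 libraries, against 18, 13.9 and 16 CPM in untreated ones. In OCI-LY3 it had 6.68, 6.62 and 6.72 CPM with drug, against 13, 14.3 and 13.4 CPM without. The groups were apart in each line, in opposite directions. It rose in SU-DHL6 (log2 0.61, SE 0.14; adjusted p = 0.00276, edgeR) and fell in OCI-LY3 (-1.03, SE 0.15; adjusted p = 6.7e-05), a difference of 1.63 (SE 0.20; adjusted p = 3.2e-05). SNHG25 had 0.72 to 1.19 CPM in treated and 0.475 to 0.87 CPM in untreated SU-DHL6 libraries, and 0.151 to 1.05 CPM in treated and 0.975 to 1.18 CPM in untreated OCI-LY3 libraries (log2 0.50, SE 0.49, and -0.50, SE 0.50).

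Of the scaRNA hosts, SNHG10 (chr14:95532297-95534872), host of SCARNA13, had 6.59, 5.68 and 5.51 CPM in treated SU-DHL6 libraries, against 3.59, 4.35 and 5.13 CPM in untreated ones. Its OCI-LY3 levels were 8.93, 10.5 and 9.36 CPM with drug, against 12.9, 11.6 and 12.5 CPM without. The groups did not overlap in either line, above the untreated cells in SU-DHL6 and below them in OCI-LY3. The SU-DHL6 value of 0.44 was called (log2, SE 0.17; adjusted p = 0.0451, edgeR), but not when any 1 library other than untreated SU-DHL6 replicate 3 was left out (adjusted p from 0.0537 to 0.146). The OCI-LY3 value of -0.36 was not called (SE 0.16; adjusted p = 0.0789), but was with limma-voom (-0.36, adjusted p = 0.0431), in that line alone (-0.37, 0.0327) and with library totals (-0.48, 0.0229). The difference of the responses was called (0.81, SE 0.23; adjusted p = 0.0138). GLRX5, which shares 391 exon bases on the opposite strand, was called in neither line (-0.25 and 0.03, SE 0.12 each).

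SNHG20 (chr17:77086716-77094990), host of SCARNA16, varied too much between replicates to be placed. It had 14.6, 2.54 and 21.7 CPM in treated SU-DHL6 libraries, against 4.54, 1.86 and 2.82 CPM in untreated ones, and 16, 14.7 and 27.6 CPM in treated OCI-LY3 libraries, against 6.06, 24 and 22.9 CPM in untreated ones. The log2 fold change was 2.08 in SU-DHL6 (SE 0.81; adjusted p = 0.0679, edgeR) and 0.14 in OCI-LY3 (SE 0.73). Without treated SU-DHL6 replicate 2 the SU-DHL6 value was 2.56 (adjusted p = 0.0104) and the difference of responses 2.42 (adjusted p = 0.0457), and without untreated OCI-LY3 replicate 1 the SU-DHL6 value of 2.07 also passed (adjusted p = 0.0478). SEC14L1 shares 460 exon bases with SNHG20 on the same strand and fell in SU-DHL6 and rose in OCI-LY3 (-1.06, SE 0.13, and 1.27, SE 0.12). SNHG21 had 3.32 to 5.76 CPM in treated and 4.07 to 6.57 CPM in untreated SU-DHL6 libraries, and 2.11 to 3.32 CPM in treated and 2.79 to 4.35 CPM in untreated OCI-LY3 libraries, with overlap in both. It shares 768 of its 1053 exon bases with AC105339.2 on the same strand, so reads may be shared. AC105339.2 rose in SU-DHL6 (log2 2.06, SE 0.26) and was not called in OCI-LY3 (-0.61, SE 0.27). FSD2, which shares 359 exon bases on the opposite strand, was called in neither line (-0.56, SE 0.33, and -0.87, SE 0.59).

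The table also counts the snoRNAs themselves, although the libraries were made with an mRNA kit that is not designed for short RNAs. Of 132 snoRNA or scaRNA rows inside the hosts, 84 lay in SNHG14, 54 had no counts, 14 had exactly 1 count in all 12 libraries and 8 reached a mean of 10. A pair is printed to show what a host carries (GENCODE 29, GRCh38). SNORA24 is shown because its count moved against that of its host SNHG8, with the ACA that gives the box its name in capitals, and SNORD104 of SNHG25 shows the box C/D form, with the C box TGATGA and the D box CTGA in capitals.
SNORA24, at chr4:118279190-118279320, plus strand: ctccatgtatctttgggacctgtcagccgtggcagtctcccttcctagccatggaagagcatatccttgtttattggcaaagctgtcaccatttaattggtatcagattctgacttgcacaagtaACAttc
SNORD104, at chr17:64146083-64146152, plus strand: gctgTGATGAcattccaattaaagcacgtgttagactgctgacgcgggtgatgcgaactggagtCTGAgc

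Of the 11 snoRNA rows inside hosts that could be tested, 4 rose and 0 fell in SU-DHL6 (20.4% and 22.8% of all genes) and 0 rose and 1 fell in OCI-LY3 (22.2% of all genes each way; edgeR). Over all 36 snoRNA and scaRNA rows tested, wherever they lie, 19 rose and 1 fell in SU-DHL6 and 2 rose and 2 fell in OCI-LY3, with medians of 1.16 and -0.03. SNORA24 had 22, 21 and 25 counts in treated SU-DHL6 libraries, against 7, 5 and 8 counts in untreated ones (log2 1.43, SE 0.41; adjusted p = 0.011, edgeR), while SNHG8 fell. The call was lost without untreated SU-DHL6 replicate 2 (1.21, adjusted p = 0.0565), and all 131 bases of SNORA24 lie in annotated SNHG8 exons, so reads may be shared.

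SNORD87 had 50, 45 and 48 counts in treated SU-DHL6 libraries, against 21, 12 and 7 counts in untreated ones (log2 1.53, SE 0.53; adjusted p = 0.0316, edgeR), while SNHG6 fell. Its call was lost without any 1 of 5 SU-DHL6 libraries, all but untreated replicate 1 (adjusted p from 0.0608 to 0.106), and all its 89 bases lie in annotated SNHG6 exons, so here too reads may be shared. SNORA73B, in an intron of SNHG3, rose in SU-DHL6 as its host did, with 68, 45 and 66 counts in treated libraries, against 22, 20 and 13 counts in untreated ones (1.39, SE 0.30; adjusted p = 0.00178). OCI-LY3 libraries had 9, 9 and 17 counts with drug, against 8, 6 and 6 counts without (0.89, SE 0.40; adjusted p = 0.0817), where SNHG3 fell. RF00345, a snoRNA row of SNHG19 named in the table by its Rfam family, also rose in SU-DHL6 (1.72, SE 0.33; adjusted p = 8.3e-04).

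SNORD26, whose 75 bases lie in annotated SNHG1 exons, fell in OCI-LY3 as SNHG1 did, with 4, 5 and 1 counts in treated libraries, against 14, 13 and 11 counts in untreated ones (log2 -1.79, SE 0.58; adjusted p = 0.0223, edgeR). That call was lost without treated replicate 3 (-1.37, adjusted p = 0.0884) or untreated replicate 1 (-1.73, adjusted p = 0.0567) of that line. In SU-DHL6 the value was 0.68 (SE 0.47; adjusted p = 0.27), and the responses differed by 2.47 (SE 0.75; adjusted p = 0.0193). SNORD22, also in SNHG1, had 1 count in 9 libraries and 31 to 46 counts in the other 3, which belong to 3 different groups, so its log2 fold changes of -4.12 in SU-DHL6 (SE 2.41) and 0.52 in OCI-LY3 (SE 1.65), neither called, rest on single libraries. It was called lower in SU-DHL6 by DESeq2 (-4.31, adjusted p = 0.04). SNORD104 had 31, 29 and 25 counts in treated SU-DHL6 libraries, against 8, 22 and 10 counts in untreated ones, which was not called (0.79, SE 0.36; adjusted p = 0.0892) but passed without untreated SU-DHL6 replicate 2 (1.27, adjusted p = 0.0205).

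**Figure D4:**
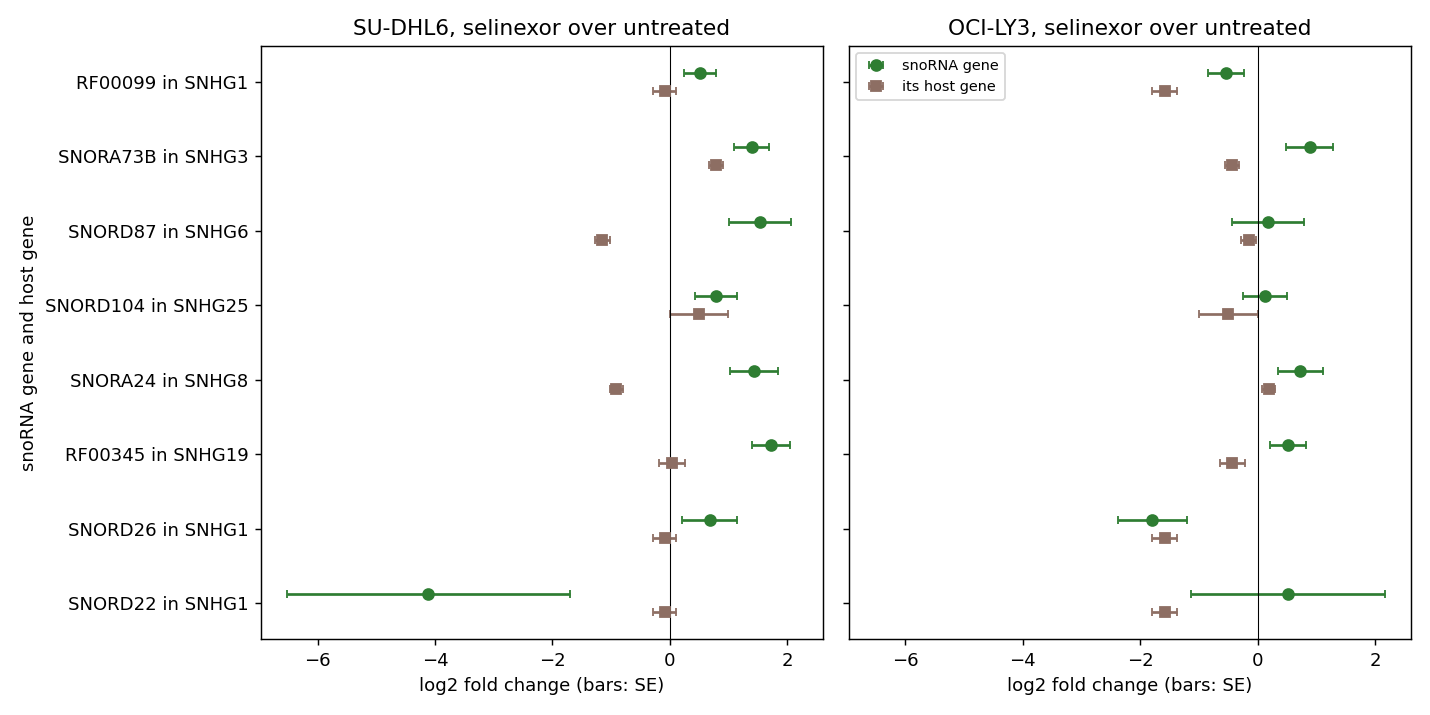
Log2 fold change of selinexor over untreated cells for the 8 snoRNA rows inside hosts with a mean of at least 10 counts (circles) and for their host genes (squares), in SU-DHL6 (left) and OCI-LY3 (right), with bars for the SE. In SU-DHL6, SNORA24 at 1.43 and SNORD87 at 1.53 lie right of 0 and their hosts SNHG8 at -0.91 and SNHG6 at -1.15 left of it.

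Genes that act on the same snoRNAs were looked at beside the hosts, and their counts can be read against 20.4% of all genes higher and 22.8% lower in SU-DHL6 and 22.2% each way in OCI-LY3. Of 4 core proteins of box C/D particles, 2 rose and 1 fell in SU-DHL6 and 1 rose and 2 fell in OCI-LY3. NOP56 rose in both (log2 0.33 in SU-DHL6 and 0.23 in OCI-LY3, SE 0.08 each). Its OCI-LY3 call (adjusted p = 0.0387, edgeR) was lost with library totals (0.11, 0.305), no filter (0.142) and the replicate block (0.107). It was also lost without treated OCI-LY3 replicate 1 or 3, any untreated OCI-LY3 replicate, or untreated SU-DHL6 replicate 3 (adjusted p from 0.0526 to 0.139). NOP58 moved in the directions of SNHG3 and SNHG12, higher in SU-DHL6 (129 ± 13.5 CPM treated, 64.9 ± 7.14 CPM untreated) and lower in OCI-LY3 (58.3 ± 2.04 CPM treated, 95.5 ± 1.84 CPM untreated; SD, n = 3), while the methyltransferase FBL fell in both (log2 -0.85 and -0.88, SE 0.15 each). Of 4 core proteins of box H/ACA particles, 3 rose and 0 fell in SU-DHL6 and 0 rose and 1 fell in OCI-LY3, among them DKC1, the pseudouridine synthase (0.35 and -0.44, SE 0.09 each), and GAR1 (0.60, SE 0.14, in SU-DHL6). Of 13 assembly factors, 6 rose and 1 fell in SU-DHL6, with ZNHIT6 at 1.17, NUFIP1 at 0.91 and the ATPase RUVBL2 at -0.56, and 0 rose and 4 fell in OCI-LY3, with the cap methyltransferase TGS1 at -0.88, against 0.56 in SU-DHL6, and NAF1 at -0.45.

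Of 14 factors of nonsense-mediated decay, 5 rose and 5 fell in SU-DHL6, where 43.2% of all genes changed, and 1 rose and 3 fell in OCI-LY3, where 44.4% did, with medians of 0.01 and -0.16. In SU-DHL6 the kinase SMG1 and UPF2 rose (log2 0.88 and 0.92, SE 0.13 and 0.15) and SMG9 and SMG5 fell (-1.14 and -0.54, SE 0.13 and 0.09). In OCI-LY3 RBM8A rose (0.38, SE 0.10; not called with library totals, adjusted p = 0.052, edgeR). The helicases UPF1 and EIF4A3 fell in that line (-0.98 and -0.54, SE 0.14 and 0.10), as did UPF2 (-0.76, SE 0.15).

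Of 28 protein-coding genes that host snoRNAs, 11 rose and 7 fell in SU-DHL6 (20.4% and 22.8% of all genes) and 5 rose and 11 fell in OCI-LY3 (22.2% of all genes each way), with medians of 0.23 and -0.18. TPT1, a translation-linked protein gene, and the ribosomal scaffold gene RACK1 moved in the same directions as GAS5: TPT1 by -0.75 in SU-DHL6 and 1.06 in OCI-LY3, and RACK1 by -1.32 and 0.48 (log2, SE 0.09 each). The elongation factor gene EEF2 fell in SU-DHL6 to 3320 ± 32.5 CPM, against 13600 ± 1810 CPM in untreated cells, and had 15500 ± 1450 CPM in treated and 14700 ± 1060 CPM in untreated OCI-LY3 cells (SD, n = 3). NCL, encoding nucleolin, moved in those of SNHG3 and SNHG12 (0.78 in SU-DHL6 and -0.59 in OCI-LY3, SE 0.09 each). The translation factor genes EIF4G2 and EIF4A2 rose in both lines, EIF4G2 by 0.95 in SU-DHL6 and 0.32 in OCI-LY3 and EIF4A2 by 0.58 and 0.66 (SE 0.11 each).

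Of 4 noncoding hosts outside the SNHG names, 3 were tested. ZFAS1 fell in SU-DHL6, to 55.5, 48.2 and 43.7 CPM, against 147, 152 and 144 CPM in untreated libraries (log2 -1.59, SE 0.10; adjusted p = 4.3e-08, edgeR). In OCI-LY3 it had 218, 206 and 229 CPM with drug, against 190, 214 and 183 CPM without, with overlap. DANCR fell in OCI-LY3 (-0.59, SE 0.12; adjusted p = 0.00155) and was not called in SU-DHL6 (0.12, SE 0.12; adjusted p = 0.48).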

How the data were processed

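The deposited table holds, per the file headers, a read count and an FPKM value per gene and library. The aligner, counting program and strandedness were not given in the sources used here. Builds named in the submitters' processing notes, GRCm38 and mm10, are of the mouse, but the identifiers are human, 58039 of them in GENCODE 29 (GRCh38). The counts were analysed as deposited, although 235 genes had exactly 1 count in all 12 libraries, so some may be rounded estimates. The FPKM values deposited by the authors followed from the counts (9162 genes with at least 50 counts; largest ratio 1.000019), with lengths longer than the exons for many hosts, and give only an alternative order of levels.

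Genes passing filterByExpr by group (16474) were fitted in edgeR 4.0.16 (R 4.3.3), with TMM scaling, 1 model for the 12 libraries and robust quasi-likelihood F tests. P-values were adjusted by Benjamini-Hochberg over all genes tested, and called at under 0.05. SE was obtained from the log2 fold change and F (their ratio, with F under a root). Verbs of change are kept for called genes. CPM are relative to TMM-scaled totals. The script was tested on simulated data. SnoRNA positions and promoters are from RefSeq (17 of 21 tested hosts matched).

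Members, lists and tests were chosen with earlier results of these data known. Values per library are given for hosts called in both lines or for the difference, and the 3 largest and 3 smallest log2 fold changes per line; from each list, up to 2 genes per direction and line with the smallest adjusted p were named. EEF2, NOP58 and ZFAS1 were picked for their levels after these were seen. Once each gene's group mean was subtracted from its log CPM, same-numbered treated and untreated libraries of a line had correlations of -0.16 to 0.05. These correlations of what remains cannot show whether cultures were set up in pairs, and replicate number was left out of the main fit. Alternatives were DESeq2 1.42.0, limma-voom (limma 3.58.1), other scalings, filters and thresholds, each line alone, a replicate block and leaving out each library.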

Additional observations from a re-analysis of the deposited data

Results flagged for a closer look

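The response to selinexor differed between the lines by a test of the difference itself (SU-DHL6 minus OCI-LY3, log2, edgeR, adjusted p under 0.05) for 12 host genes. The values were 1.63 for SNHG12, 1.49 for SNHG1, 1.20 for SNHG3, 1.14 for SNHG15, 0.83 for SNHG17, 0.81 for SNHG10 and 0.59 for SNHG4, and -1.77 for GAS5, -1.46 for SNHG7, -1.09 for SNHG8, -1.0 for SNHG6 and -0.84 for SNHG5. The snoRNA row SNORD26 inside SNHG1 differed by 2.47.

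Among genes of the same pathways, the difference was 1.70 for NOP58, 0.79 for DKC1, 0.68 for GAR1, 1.04 for NUFIP1, 1.23 for ZNHIT6, 0.47 for NAF1 and 1.44 for TGS1. It was -0.96 for SMG9, -0.72 for SMG5, 1.01 for SMG1 and 1.68 for UPF2. Among other snoRNA hosts it was -1.80 for RACK1, -1.80 for TPT1, 1.38 for NCL, 0.63 for EIF4G2, -2.12 for EEF2, -1.74 for ZFAS1 and 0.71 for DANCR. XPO1 differed by 0.78. Dose and time are not tied to lines in the labels and cannot be told apart from the line. Groups of 3 were not searched for outlying libraries.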

How the results depend on the processing

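Outside the stricter threshold, every alternative run kept the call and direction of 9 of 12 called hosts in SU-DHL6 (not SNHG4, SNHG9 and SNHG10), 8 of 10 in OCI-LY3 (not SNHG7 and SNHG26), 11 of 12 for the difference (not SNHG5) and 9 of 12 between untreated lines (not SNHG5, SNHG15 and SNHG20). With library totals, all genes called in SU-DHL6 were 5451 higher and 2367 lower, in OCI-LY3 2939 and 4388, and for the difference 4891 and 1817. At an adjusted p under 0.01, 2155 genes were higher in SU-DHL6 and 1727 were above 0 for the difference, and 2 hosts were lower in untreated OCI-LY3. At the threshold of 0.05 that count of hosts was 4, and 2 to 5 when 1 library was left out. With the replicate block 7 hosts were higher and 6 lower in SU-DHL6 and 2 higher and 6 lower in OCI-LY3. All genes called with it were 2964 higher and 3396 lower in SU-DHL6 and 3305 and 3280 in OCI-LY3. SNHG7 (-0.35, adjusted p = 0.0772, edgeR) and SNHG26 (0.53, 0.0594) lost their OCI-LY3 call and SNHG10 (0.102) its SU-DHL6 call, while SNHG15 (0.0313) and SNHG20 (1.79, 0.0455) gained one in SU-DHL6.

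Signs turned only for values that were not called. With library totals these were SNHG9 (-0.11) and SNHG11 (-0.10) in OCI-LY3, SNHG1 (0.17), SNHG11 (0.04) and SNHG21 (0.05) in SU-DHL6, SNHG11 (0.14) and SNHG14 (0.15) for the difference, and SNHG4 between untreated lines (-0.06). In OCI-LY3, SNHG5 was 0.02 with DESeq2 size factors, 0.01 with DESeq2 and 0.00 with limma-voom and the replicate block; SNHG9 was -0.00 with limma-voom and no filter and -0.01 in that line alone; SNORD87 was -0.51 with limma-voom and -0.00 with the replicate block. Leaving out 1 library gave ranges in OCI-LY3 of -0.18 to 0.23 for SNHG9, -0.06 to 0.10 for SNHG11, -0.11 to 0.08 for SNHG5, -0.27 to 0.43 for SNHG20, -0.52 to 0.73 for SNORD87, -0.21 to 0.28 for SNORD104 and -3.24 to 3.87 for SNORD22, in SU-DHL6 of -0.19 to 0.30 for SNHG19 and -0.03 to 0.38 for SNHG16, and between untreated lines of -0.03 to 0.03 for SNHG4. The causes were not tested. Depth limits SNHG9, SNHG25 and the snoRNA rows, whose counts per library are low.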
